A study of Mus musculus with 15 samples.

Results

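Sections of mouse embryos at embryonic day 11 (E11), read with pixels 25 µm wide, were compared with sections at embryonic day 10 (E10), read with pixels 50 µm wide. The comparison used 2 E11 and 3 E10 transcript libraries of the 11 transcript libraries and 15 samples in the series. They were chosen by the stage and pixel width in the labels, and a pixel counted as tissue when it held 0.1 or more of the 95th percentile of totals per pixel in its own library. This left 1704 and 1504 tissue pixels in E11 libraries 1 and 2, and 859, 829 and 839 in E10 libraries 1, 2 and 3. Counts were summed over tissue pixels, and genes are given as CPM, counts scaled to a sum of 1000000 over the tissue pixels of a library. All 5 libraries came from frozen embryos embedded for cryosectioning, and the labels name no strain, genotype or treatment. The assay barcodes RNA in a tissue section through crossed microfluidic channels, so that a pixel is a small square that can hold several cells.

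Stage and pixel width change together in this comparison, and so does the part of the body on the chip. Neither the embryo nor the region behind a section is given in the labels. Counts of Y-linked genes, given below, also differ between the groups. The separate contributions of stage, width, body part and sex cannot be told apart. In the main test of genes, p-values measure the spread within groups over all transcript libraries of the series, sections outside this comparison included. Exact permutation tests use the compared libraries alone. In both cases the spread may be technical. Because counts were summed over whole sections, fewer cells of a type and less RNA per cell of that type cannot be told apart.

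Around these stages the mouse liver grows out from the foregut endoderm and begins to make plasma proteins, the heart beats as a looped tube with forming chambers, and neurons appear along the brain and spinal cord. The Hox genes lie in clusters A to D and are switched on in order along the cluster, so that the low-numbered paralog groups mark the hindbrain and neck and the high-numbered groups mark the lower trunk, limb buds and tail. The forebrain expresses no Hox genes and is marked by other factors, among them the homeobox factor Otx2.

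The E11 chip filled more of the grid and met its edge. On a grid of 2500 positions, tissue took up 68.2% and 60.2% in the E11 libraries and 33.2% to 34.4% in the E10 libraries. Of the 196 positions on the edge of the grid, 94 and 85 held tissue in the E11 libraries, against 0, 2 and 21 in E10 libraries 1, 2 and 3. Tissue was thus cut by the edge of the field in the E11 libraries and in E10 library 3, and hardly or not at all in E10 libraries 1 and 2. The 2 E11 outlines were alike: their tissue positions shared 1386 pixels, which is 76.1% of the positions with tissue in either, against 41.3% to 58.3% in pairs of E10 libraries. Over shared positions, the liver genes of the 2 E11 libraries correlated with r = 0.502 and the heart genes with r = 0.722 on a log2 scale. Whether both E11 sections came from 1 embryo was not tested, and the spread between them may be smaller than that between embryos.

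A 25 µm pixel held fewer counts than a 50 µm pixel. The median tissue pixel had 2530.5 and 4343.5 counts in the E11 libraries and 11332, 8239 and 10659 in the E10 libraries. The groups did not overlap. The means were 3437 ± 1282 (SD, n = 2) and 10077 ± 1627 (SD, n = 3), and the ratio of the geometric means, E11 over E10, was 0.332 (two-sided exact permutation p = 0.1, the smallest that 2 against 3 libraries allow). For the median genes per tissue pixel the ratio of the geometric means was 0.432 (exact permutation p = 0.1). A 50 µm pixel covers 4 times the area of a 25 µm pixel, and per square micron the median was 5.50 ± 2.05 counts at E11 (SD, n = 2) and 4.03 ± 0.651 at E10 (SD, n = 3), which overlapped (exact permutation p = 0.5). With pixels thinned to 1000 counts, the median was 719 ± 26.9 genes at E11 and 767 ± 21.7 at E10 (exact permutation p = 0.2). The E11 sums rested on 5066401 and 7677938 tissue counts and the E10 sums on 8390545 to 11348089, so that 3 counts over a whole group corresponded to 0.235 CPM at E11 and 0.0988 CPM at E10. Intervals and limits of this kind cover counting error only.

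Some libraries stood apart. The mitochondrial genes summed to 6276 CPM in E11 library 1, against 27794 CPM in E11 library 2 and 25081 to 30504 CPM in the E10 libraries, and 61 replication-dependent histone genes summed to 17442 CPM in E11 library 1 against 4623 CPM in library 2. Counts in columns of Y-linked genes summed to 0 CPM in both E11 libraries and to 144 to 157 CPM in the E10 libraries. The Y-linked counts thus move with the group, and sex cannot be told apart from stage. E10 library 2 had more heart and pigment counts and fewer of the midbrain-hindbrain border than the other E10 libraries, as given below. The part of these differences in the results was not tested.

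Among 18233 genes tested with edgeR's quasi-likelihood test, 507 passed an adjusted p of 0.05, which is 2.78%, and 3477 had an unadjusted p under 0.05. Pseudogene columns, which share reads with their parent genes, and genes on X or Y were then set aside, and 15303 genes remained to be described. Of these, 162 were higher at E11 (1.06%) and 158 were lower (1.03%). In all 320 the libraries of the groups did not overlap, and over the 15303 genes 13.4% lay above all E10 libraries in both E11 libraries and 26.7% lay below them. At an unadjusted p under 0.05 by edgeR, 1302 of the 15303 were higher and 1461 were lower. The counts of non-overlap and of unadjusted p given for lists below are to be set against these shares. The count of 320 depends on single libraries: it was 20 without E11 library 1, 511 without E11 library 2, and 92, 146 and 59 without E10 libraries 1, 2 and 3. It was 1249 when the spread was estimated from these 5 libraries alone rather than from all 11, and 859 without the pair of E11 libraries read at 10 µm.

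Among the described genes, the 12 largest changes in each direction named posterior Hox genes and liver genes on the higher side, and forebrain and neuronal genes on the lower side. The higher genes were Hoxc9, BC049730, Hoxa10, Fgg, Serpind1, Zfp990, Hoxd9, Kng1, Hoxc10, Hoxc8, Hnf4a and Pla2g12b. The lower genes given here, 10 of the 12, were RP24-286J21.7, Fezf2, Prrxl1, Fgf17, Tbr1, Calb2, Akr1e1, Slc17a6, Nrn1 and Celf6. The plot of these 22 genes shows each library.

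**Figure D1:**
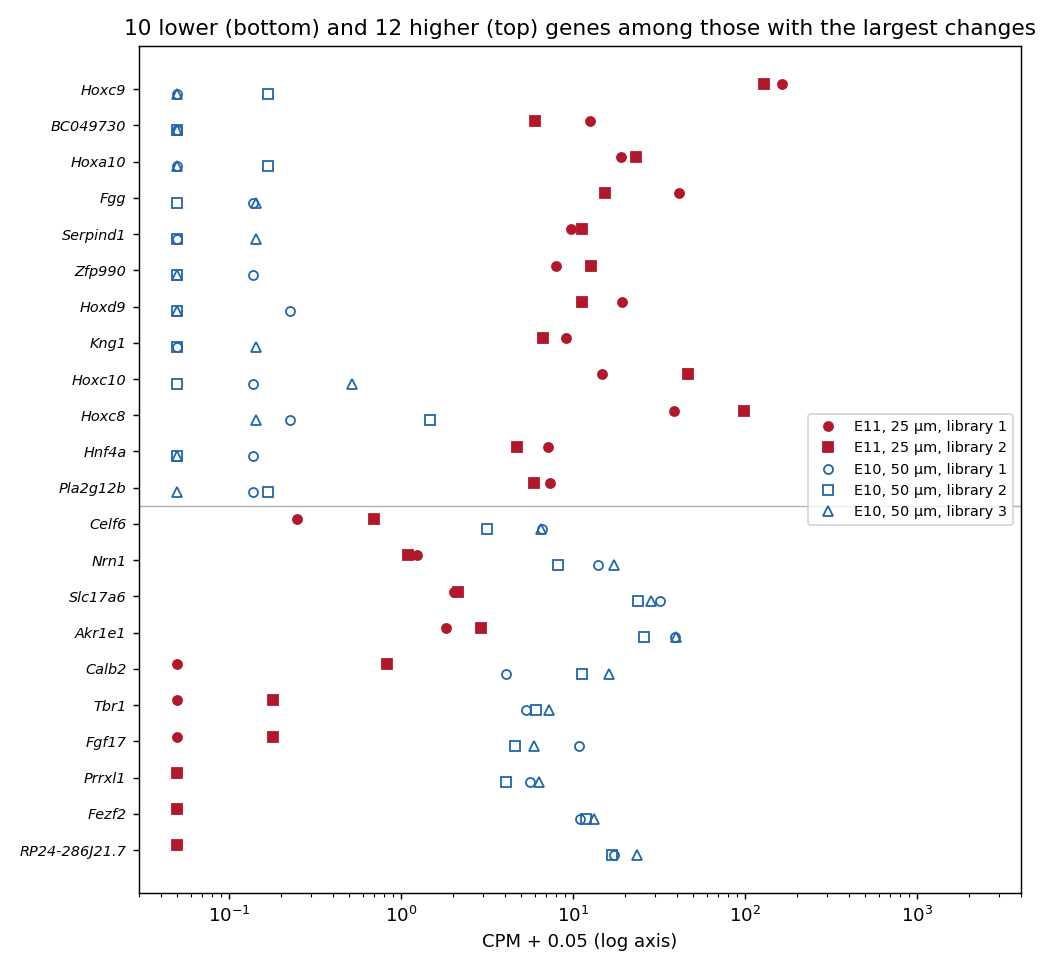
CPM plus 0.05 on a log axis for 22 of the 24 genes with the largest changes among those at 5 CPM or more in the higher group, with 1 point per library (filled red for E11 at 25 µm, open blue for E10 at 50 µm). The E11 and E10 points do not overlap for any of the 22 genes, which the choice of genes required, and most higher genes sit near 0 at E10, as Hoxc9 does at 0 to 0.119 CPM.

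The posterior Hox genes, paralog groups 9 to 13, were higher at E11. Of 13 tested, 8 rose and none fell. The libraries did not overlap in 10 that were higher and 1 that was lower, against 13.4% and 26.7% of the described genes. Their median log2 fold change was 5.44, against -0.09 over all described genes. It was also 5.44 over 11 of them, with 3 genes at 0 in one group set at their bound. That median left out 2 genes too scarce for a bound, Hoxc12 and Hoxc13. Summed over the list, they stood at 350 and 408 CPM at E11 and at 28.5, 108 and 17.6 CPM at E10. Hox genes overlap each other and antisense RNAs within a cluster, and since the use of strand in counting is not given in the sources used here, counts of single Hox genes are uncertain.

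Hoxc9, which patterns the trunk and its motor neurons, stood at 163 and 130 CPM in the E11 libraries and at 0, 0.119 and 0 CPM in the E10 libraries. Those were 1822 counts against 1 count, a ratio of 4340 with a 95% counting interval of 778 to 172000 (edgeR adjusted p = 5.4e-06). Both E11 libraries were high and all E10 libraries were at or near 0. Hoxa10, a trunk and hindlimb factor, had 18.9 and 23.3 CPM at E11 and 0, 0.119 and 0 CPM at E10, a ratio of 655 with an interval of 117 to 26000 (edgeR adjusted p = 2.7e-05). Hoxd9 had 19.1 and 11.2 CPM against 0.176, 0 and 0 CPM, a ratio of 218 with an interval of 59.5 to 1810 (edgeR adjusted p = 0.00028). Hoxc10 had 14.6 and 46.4 CPM against 0.0881, 0 and 0.47 CPM, a log2 fold change of 7.27 ± 0.74 (SE; edgeR adjusted p = 0.00045). These 4 genes come from clusters A, C and D. In each of them every E11 library lay above every E10 library, which the choice of genes required.

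Hoxa9 rose from 1.23, 1.19 and 0.094 CPM to 25.3 and 42.7 CPM, a log2 fold change of 5.44 ± 0.70 (SE; edgeR adjusted p = 0.0027). Group 11 genes were low but present at E11: Hoxa11 had 4.74 and 2.87 CPM against 0, 0 and 0.094 CPM, a ratio of 110 with an interval of 18.7 to 4420 (edgeR adjusted p = 0.0091). Hoxd11 had 0.592 and 2.47 CPM and no count in the E10 libraries at 50 µm, at least 17.5-fold higher (edgeR adjusted p = 0.021). The E10 section of the series read at 25 µm had 0.640 CPM of Hoxd11, between the E11 libraries. Hoxd10 had 2.37 and 3.52 CPM against 0, 0 and 0.188 CPM, a ratio of 46.5 with an interval of 12.0 to 397 (edgeR adjusted p = 0.025). Hoxc9, Hoxa10, Hoxd9, Hoxc10 and Hoxa9 also passed without E11 library 1, while Hoxa11, Hoxd11 and Hoxd10 did not. The list count was 5 without that library, 6 without E11 library 2, and 6, 7 and 6 without E10 libraries 1, 2 and 3.

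Hoxb9 was the group 9 gene already present at E10. It stood at 98.5 and 144 CPM at E11 and at 26.8, 106 and 16.6 CPM at E10, so that E10 library 2 lay between the E11 libraries, and it did not pass the test (log2 fold change 1.35 ± 0.92, SE; edgeR adjusted p = 0.48). The most posterior genes were scarce in all 5 libraries. Hoxc11 had 0.987 and 0.391 CPM at E11 and Hoxd13 had 0.790 and 0.391 CPM, both with no count in the E10 libraries at 50 µm. Neither passed (edgeR adjusted p = 0.077 and 0.084), and the E10 section at 25 µm had 0.640 CPM of Hoxd13. Hoxc13 went the other way, with no count at E11 and 0.176, 0.238 and 0.094 CPM at E10 (edgeR adjusted p = 0.4), and Hoxc12 had no count in these 5 libraries.

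Fewer genes passed in the lower-numbered groups. Of the 11 tested genes of groups 5 to 8, 2 rose and none fell, with a median log2 fold change of 1.09, and of the 11 tested genes of groups 1 to 4 none passed, with a median of 0.49. Hoxc8 had 38.5 and 98.3 CPM at E11 and 0.176, 1.43 and 0.094 CPM at E10, a log2 fold change of 7.09 ± 1.08 (SE; edgeR adjusted p = 0.024). Hoxd8 had 11.8 and 9.64 CPM against 1.67, 1.91 and 0.658 CPM, a log2 fold change of 3.03 ± 0.69 (SE; edgeR adjusted p = 0.036). Neither group 8 gene passed without E11 library 1, E10 library 1 or E10 library 3. Groups 1 to 4 had 5 genes that did not overlap between the groups on the higher side and 2 on the lower side, and at an unadjusted p under 0.05 the edgeR test gave 2 higher and 0 lower. Over the 15303 described genes, 13.4% and 26.7% did not overlap, and 1302 and 1461 had such a p.

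Summed by paralog group, the E11 libraries stood apart from group 6 on, while groups 1 to 5 followed no common direction. Group 1 genes together were higher at E11, at 33.4 and 28.3 CPM against 13.7, 20.02 and 10.6 CPM. Group 2 genes were lower, at 10.1 and 10.03 CPM against 28.0, 16.9 and 18.99 CPM, and neither set overlapped between the groups. Group 3 genes stood at 23.3 and 21.8 CPM against 25.1, 17.5 and 18.99 CPM, which overlapped. Group 4 genes stood at 112 and 87.9 CPM at E11 and at 106, 56.0 and 49.4 CPM at E10, and group 5 genes at 64.7 and 110 CPM against 132, 80.9 and 60.8 CPM, so both overlapped. Group 7 genes stood at 44.8 and 57.6 CPM against 23.7, 20.02 and 6.49 CPM. Group 8 genes stood at 96.7 and 135 CPM against 19.03, 15.4 and 8.37 CPM, and group 10 genes at 35.9 and 73.2 CPM against 0.0881, 0.119 and 0.658 CPM. From group 6 to group 13 both E11 libraries lay above all 3 E10 libraries. Groups 12 and 13 rested on few counts, at 0.391 to 0.790 CPM at E11 and 0 to 0.238 CPM at E10, so their separation is uncertain.

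**Figure D2:**
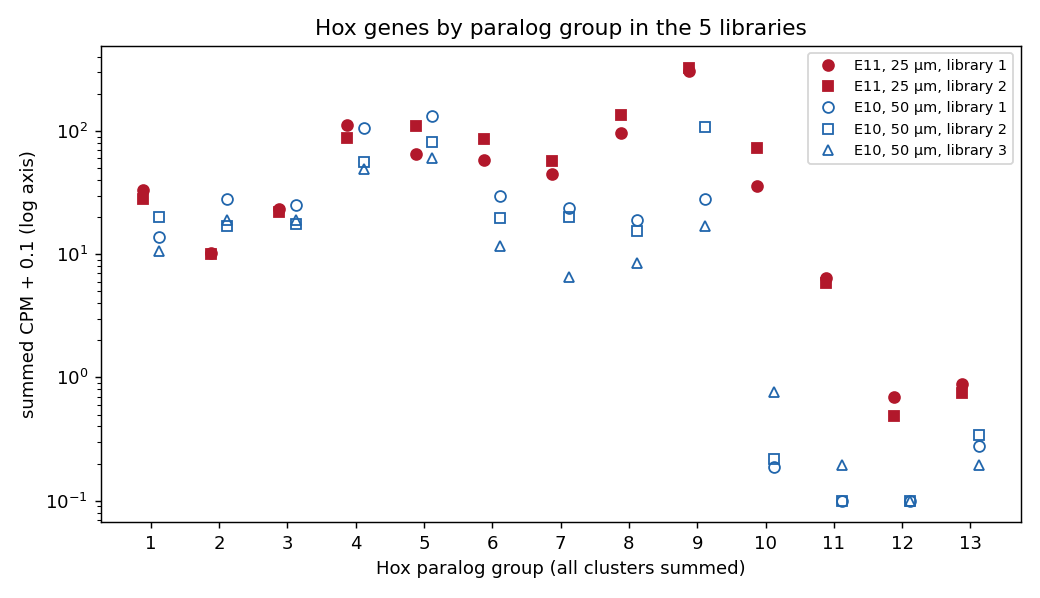
Hox counts summed by paralog group over the 4 clusters, as CPM plus 0.1 on a log axis, with 1 point per library (filled red for E11 at 25 µm, open blue for E10 at 50 µm). E11 is higher at paralog group 1 and lower at group 2, the libraries overlap at groups 3 to 5, E11 stands above E10 from group 6 on, and the E10 libraries are near 0 from group 10 on, at 0.0881 to 0.658 CPM in group 10. Groups 12 and 13 rest on few counts in both stages.

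The level of these genes differed between E11 sections as well. In the other E11 libraries, read at 10 µm, Hoxc9 stood at 0.778 and 2.55 CPM and Hoxa10 at 1.95 and 1.46 CPM. The E10 section read at 25 µm, the width of the E11 sections, had no count of either gene. That section also had no count in paralog groups 6 to 8, against 6.49 to 29.6 CPM per group in the E10 libraries at 50 µm. Its tissue pixels summed to 1563489 counts, fewer than in any of the 5 libraries. Stage and body part cannot be told apart here either. Against that single library, Hoxc9 and Hoxa10 passed the edgeR test (adjusted p = 0.00147 and 0.0289), with the spread taken from the other groups.

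On the grid, posterior Hox counts were found in a larger share of the tissue pixels at E11. A count was found in 44.8% and 59.0% of them at E11 and in 16.5%, 21.4% and 12.3% at E10. The 10% of pixels with the most of these counts held 47.4% and 40.6% of them at E11 and 82.7%, 89.1% and 89.8% at E10. Moran's I, which is near 0 when neighbouring pixels are unrelated and rises towards 1 when they are alike, was 0.355 and 0.496 at E11 and 0.461 to 0.668 at E10. These pixel measures depend on the counts per pixel, which were 1.04 and 2.08 at E11 and 0.223 to 1.09 at E10, and they are given as a description.

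**Figure D3:**
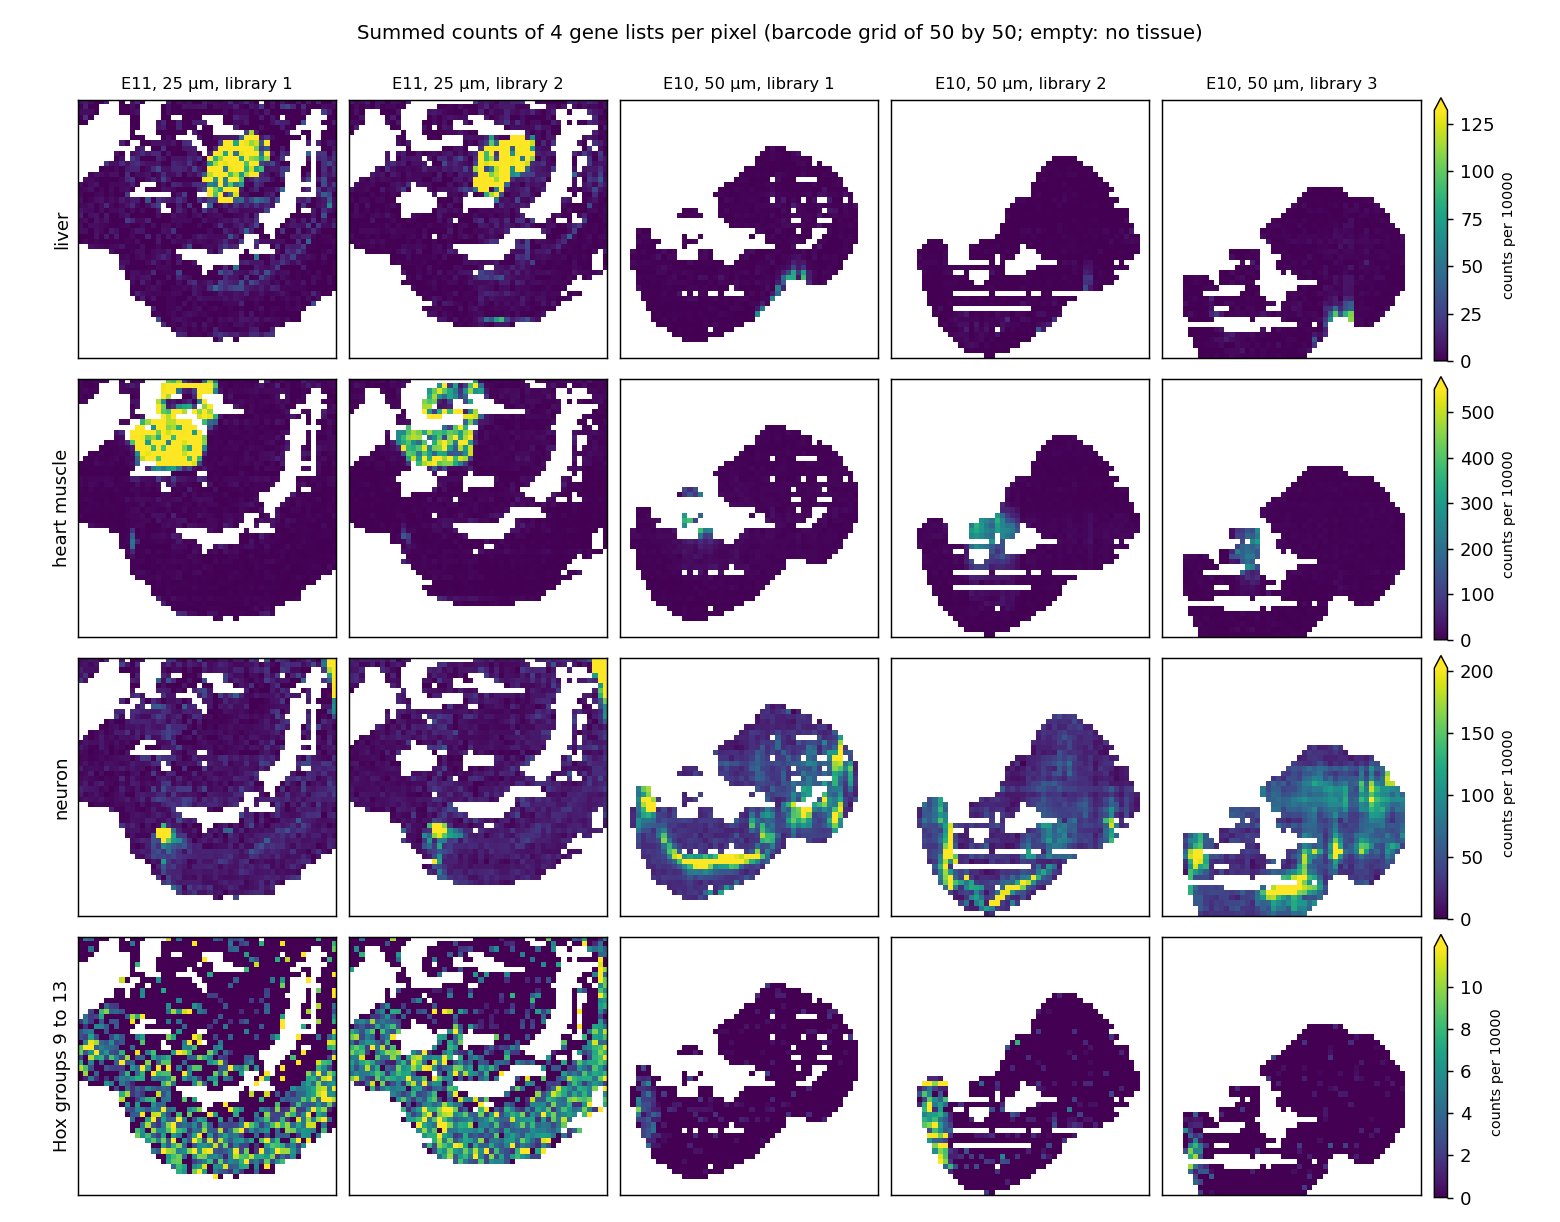
Counts of 4 gene lists per 10000 counts of each pixel on the grid of 50 by 50 positions, with 1 column per library and 1 row per list, and a colour scale shared within a row. Liver counts are concentrated in both E11 libraries, where the richest 10% of pixels held 83.2% and 86.7% of them. Posterior Hox counts were found in 44.8% and 59.0% of tissue pixels at E11 and in 12.3% to 21.4% at E10.

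Liver genes were higher at E11. Of 23 tested, 6 rose, none fell, 22 had an unadjusted p under 0.05 in the higher direction, and the libraries did not overlap in 22. Over all 15303 described genes, 1302 had such a p in that direction and 13.4% were higher without overlap. The median log2 fold change was 7.38, or 6.86 with the 3 genes that had no count at E10 at their bound. The list summed to 2014 and 2183 CPM at E11 and to 191, 96.5 and 204 CPM at E10. Much of the E10 sum was Ttr, the thyroxine carrier, which is also made by the choroid plexus and yolk sac: it had 134, 55.4 and 126 CPM at E10 and 127 and 84.3 CPM at E11, which overlapped (log2 fold change 0.16 ± 1.24, SE; edgeR adjusted p = 0.96).

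Among regulators, Hnf4a, a nuclear receptor that drives the hepatocyte programme, had 7.11 and 4.69 CPM at E11 and 0.0881, 0 and 0 CPM at E10. That was 72 counts against 1, a ratio of 172 with a 95% counting interval of 29.8 to 6870 (edgeR adjusted p = 0.038). Foxa3, a forkhead factor of gut endoderm and liver held in the gut list, had 3.36 and 2.21 CPM against no count at E10, at least 27.0-fold higher (edgeR adjusted p = 0.046). Foxa3 did not pass without any 1 of the 5 libraries (edgeR adjusted p = 0.080 to 0.390). Both endoderm factors were at or near 0 in every E10 library at 50 µm, while Hnf4a had 1.28 CPM in the E10 section at 25 µm.

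Coagulation proteins made by the liver followed. Fgg, the gamma chain of fibrinogen, had 41.0 and 15.4 CPM against 0.0881, 0 and 0.094 CPM, a ratio of 388 with an interval of 107 to 3220 (edgeR adjusted p = 0.039). Serpind1, heparin cofactor II, had 9.67 and 11.2 CPM against 0, 0 and 0.094 CPM, a ratio of 322 with an interval of 56.8 to 12800 (edgeR adjusted p = 0.023). Kng1, kininogen, had 9.08 and 6.64 CPM against 0, 0 and 0.094 CPM, a ratio of 231 with an interval of 40.5 to 9220 (edgeR adjusted p = 0.019). In all of them both E11 libraries were high and the E10 libraries held at most 1 count each.

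Of the plasma carriers, Hpx, which binds heme, had 6.51 and 5.21 CPM against 0.176, 0 and 0.752 CPM, a log2 fold change of 4.24 ± 0.95 (SE; edgeR adjusted p = 0.041). Ahsg, fetuin A, had 1.97 and 1.04 CPM against 0, 0.119 and 0 CPM, a ratio of 42.9 with an interval of 6.77 to 1790 (edgeR adjusted p = 0.014). Afp, alpha-fetoprotein, the main plasma protein of the fetus, had 703 and 1124 CPM against 0.0881, 0 and 2.16 CPM, and Apoa2, an apolipoprotein, had 209 and 169 CPM against 1.498, 3.58 and 1.79 CPM. Neither of these more abundant genes passed in the fit to all 11 libraries (edgeR adjusted p = 0.076 and 0.097), although their groups were far apart. In the E11 sections read at 10 µm, which share in that estimate of the spread, Afp stood at 41.6 CPM in 1 library and 2727 CPM in the other. With the spread taken from the 5 libraries alone, 21 of 22 liver genes passed, Afp and Apoa2 among them (edgeR adjusted p = 0.000813 and 3.34e-08).

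Promoters of 3 liver genes are shown because they hold the letters GTTAAT, the half-site of HNF1, a homeodomain factor of hepatocytes. Alb, serum albumin, named here after its values were seen, had 59.0 and 84.0 CPM at E11 and 0, 0 and 1.22 CPM at E10 (edgeR adjusted p = 0.17, and 0.000437 in the fit to the 5 libraries). Each window runs from 250 bases before to 50 bases after the RefSeq start on the plus strand of GRCm38.p6, and capitals mark GTTAAT or its reverse complement. The windows are chr5:90460620-90460919 for Alb, chr5:90490464-90490763 for Afp and chr2:163546905-163547204 for Hnf4a.
Alb: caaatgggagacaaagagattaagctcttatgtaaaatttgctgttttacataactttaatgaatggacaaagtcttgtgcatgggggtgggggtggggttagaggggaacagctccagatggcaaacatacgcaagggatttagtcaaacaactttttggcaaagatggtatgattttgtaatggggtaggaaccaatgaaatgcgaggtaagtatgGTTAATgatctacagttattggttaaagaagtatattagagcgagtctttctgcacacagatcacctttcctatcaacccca
Afp: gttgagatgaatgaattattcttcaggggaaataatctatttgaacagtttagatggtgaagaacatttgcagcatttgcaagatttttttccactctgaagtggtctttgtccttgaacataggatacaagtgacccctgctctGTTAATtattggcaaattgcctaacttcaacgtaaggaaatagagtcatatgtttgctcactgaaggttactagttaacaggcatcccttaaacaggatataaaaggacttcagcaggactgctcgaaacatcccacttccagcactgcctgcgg
Hnf4a: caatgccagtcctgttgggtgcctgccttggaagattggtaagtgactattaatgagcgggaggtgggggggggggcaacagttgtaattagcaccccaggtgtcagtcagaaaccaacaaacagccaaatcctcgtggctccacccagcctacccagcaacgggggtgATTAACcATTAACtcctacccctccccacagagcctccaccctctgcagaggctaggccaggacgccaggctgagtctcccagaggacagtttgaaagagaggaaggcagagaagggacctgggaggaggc
The letters begin 32 bases before the start in Alb and 105 bases before it in Afp, and Hnf4a holds them at 2 places close together. Of the 19 liver genes with a window in the RefSeq table, 7 held the letters on either strand, which is 36.8%, against 1 of 17 forebrain genes and 8.24% of all 27025 genes in the table. These 6 letters were searched after a longer form of the HNF1 site, which matched Afp alone among the liver genes, and a match is a description and not a binding site.

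The liver calls rested on the full set of libraries. Their count was 0 without E11 library 1, 3 without E11 library 2, and 0, 1 and 1 without E10 libraries 1, 2 and 3, while the median log2 fold change stayed at 7.12 and 7.28 without the E11 libraries. It was 3 with the pseudogene and X/Y columns left out and 1 against the E10 section at 25 µm. Counts of the liver list were packed on the grid at E11, where Moran's I was 0.497 and 0.615. At E10 it was 0.309 to 0.418 over fewer counts, much of them Ttr. Which tissue these E10 counts lay in was not tested. The richest 10% of pixels for liver genes shared 1.75% and 2.65% of its pixels with the richest 10% for heart genes in the E11 libraries, so these lists peaked in different parts of the section.

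Muscle genes were also higher at E11. Of 18 tested genes of skeletal muscle and somite, 4 rose and none fell, with a median log2 fold change of 1.26. Myh3, the embryonic myosin heavy chain, had 24.5 and 16.3 CPM at E11 and 1.59, 1.43 and 1.97 CPM at E10, a log2 fold change of 3.72 ± 0.44 (SE; edgeR adjusted p = 0.00052). It passed under all 17 alternatives tried. Mylpf, a fast skeletal myosin light chain, had 23.5 and 16.4 CPM against 9.16, 3.46 and 5.45 CPM, a log2 fold change of 1.85 ± 0.42 (SE; edgeR adjusted p = 0.035). Cdh15, the M-cadherin of myoblasts, had 4.34 and 2.08 CPM against 0.264, 0.596 and 0 CPM, a log2 fold change of 3.58 ± 0.85 (SE; edgeR adjusted p = 0.043). Tmem8c, the membrane protein myomaker that fuses myoblasts, had 1.58 and 0.651 CPM and no count at E10, at least 10.3-fold higher (edgeR adjusted p = 0.039).

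The determination factors of the muscle lineage did not pass. Myod1, Myf5 and Myog lay at or below 0.987 CPM in these 5 libraries, and Pax3, which marks the dermomyotome and the dorsal neural tube, had 44.0 and 49.6 CPM against 77.0, 67.5 and 67.3 CPM (edgeR adjusted p = 0.79). Myod1, Myf5 and Myog are named here after their values were seen. The list count was 1 without E11 library 1 and 3 without E11 library 2, and 2, 2 and 1 without E10 libraries 1, 2 and 3.

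Heart muscle genes lay higher at E11 without passing. Of 21 tested, none passed the edgeR test, also at an unadjusted p under 0.05, although 20 had a positive log2 fold change and the median was 1.85. The libraries did not overlap in 16, all higher, against 13.4% of the described genes on that side. The list summed to 3826 and 3160.1 CPM at E11 and to 899, 1781 and 765 CPM at E10, with E10 library 2 above the other E10 libraries. Myl7, the atrial myosin light chain, had 602 and 441 CPM against 91.1, 138 and 127 CPM (log2 fold change 2.25 ± 1.85, SE; edgeR adjusted p = 0.57). Actc1, cardiac actin, had 282 and 610 CPM against 99.0, 324 and 78.0 CPM, where E10 library 2 overlapped E11 library 1 (edgeR adjusted p = 0.74). In the fit to the 5 libraries alone 7 heart genes passed, Myl7 among them (edgeR adjusted p = 0.000306), and in the DESeq2 fit none did. The E11 libraries at 10 µm stood at 18.3 and 1484 CPM of Myl7.

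Smooth muscle showed the same lean. All 10 tested genes of the smooth muscle and pericyte list had a positive log2 fold change, with a median of 1.71, but none passed, and 4 had an unadjusted p under 0.05. In the fits to the 5 libraries alone and with DESeq2, 7 and 3 of them passed. Acta2, smooth muscle actin, had 175 and 231 CPM against 72.6, 74.3 and 37.1 CPM, and Des, desmin, had 109 and 59.8 CPM against 6.96, 23.1 and 8.18 CPM (edgeR adjusted p = 0.47 and 0.25). The E11 libraries lay above the E10 libraries in both genes.

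In the limb, skeleton and lining tissues, 1 or 2 genes of each list passed in the fit to all 11 libraries. The list medians of the log2 fold change were 0.02 to 0.38. The fit to the 5 libraries alone called more, all higher. These were 5 of 16 limb, 3 of 14 cartilage, 3 of 18 epithelial and 4 of 22 endothelial genes. Tbx4, a hindlimb and lung bud factor, had 9.87 and 22.9 CPM at E11 and 0.264, 1.43 and 1.22 CPM at E10, a log2 fold change of 4.18 ± 0.73 (SE; edgeR adjusted p = 0.012). It was the 1 gene of 16 in the limb list to pass in the fit to 11 libraries. Acan, the aggrecan core protein of cartilage, had 8.88 and 4.30 CPM against 0.352, 0.358 and 0.376 CPM, a log2 fold change of 4.24 ± 0.66 (SE; edgeR adjusted p = 0.0066). Col11a2, a cartilage collagen, had 21.7 and 9.12 CPM against 3.61, 3.10 and 2.63 CPM, a log2 fold change of 2.43 ± 0.45 (SE; edgeR adjusted p = 0.014). Acan and Col11a2 were 2 of 15 cartilage genes, whose median log2 fold change was 0.02, and Sox9 and Col2a1, the early cartilage regulator and collagen, had adjusted p of 0.73 and 0.54 by edgeR.

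Krt18, a keratin of simple epithelia, had 85.1 and 35.6 CPM at E11 and 15.5, 15.02 and 13.5 CPM at E10, a log2 fold change of 2.17 ± 0.35 (SE; edgeR adjusted p = 0.007), and was 1 of 19 epithelial genes to pass. Against the E10 section read at 25 µm its log2 fold change was -0.05, so the direction did not hold there. That section is a single shallower library whose body part is not in the labels, and the reason was not tested. Icam2, an adhesion molecule of endothelium and platelets, had 25.5 and 15.4 CPM against 7.40, 6.55 and 5.92 CPM, a log2 fold change of 1.75 ± 0.42 (SE; edgeR adjusted p = 0.047), and was 1 of 22 endothelial genes to pass. Kdr, the VEGF receptor of endothelium, had 37.3 and 49.4 CPM against 47.8, 60.7 and 34.5 CPM, which overlapped. Without E11 library 1, Tbx4, Acan, Col11a2, Krt18 and Icam2 had edgeR adjusted p of 0.071, 0.138, 0.325, 0.144 and 0.515. Without E10 library 3, Tbx4, Col11a2 and Icam2 had 0.063, 0.073 and 0.159, Tbx4 had 0.061 without E11 library 2, and Icam2 had 0.119 and 0.0995 without E10 libraries 1 and 2.

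Factors of the forebrain were lower at E11. Of 21 tested, 3 fell and none rose, and all 21 had a negative log2 fold change. By edgeR 18 had an unadjusted p under 0.05, against 1461 lower of all 15303 described genes. In 19 the libraries did not overlap, against 26.7% of the described genes on the lower side. The median log2 fold change was -3.41, or -3.36 with the 5 genes that had no count at E11 at their bound. The list summed to 32.2 and 56.9 CPM at E11 and to 402, 453 and 554 CPM at E10. Their defining members were at or near 0 at E11: Otx2, a homeobox factor of forebrain and midbrain, had no count in either E11 library and 85.7, 87.2 and 165 CPM at E10, which is at least 484-fold lower, and did not pass in the fit to 11 libraries (edgeR adjusted p = 0.11). In the fit to the 5 libraries alone 16 of 20 forebrain genes passed, Otx2 among them (edgeR adjusted p = 8.61e-08). With the pseudogene and X/Y columns left out before the fit none of the 21 passed, at a median of -3.33.

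Fezf2, a zinc finger factor of forebrain progenitors, had no count at E11 and 10.9, 11.9 and 13.2 CPM at E10, at least 50.9-fold lower (edgeR adjusted p = 0.049). Tbr1, a T-box factor of early cortical neurons, had 0 and 0.13 CPM against 5.29, 6.08 and 7.24 CPM, a ratio of E10 over E11 of 78.9 with an interval of 14.0 to 3130 (edgeR adjusted p = 0.03). Lhx2, a LIM homeobox factor that is also made in the limb and eye, was still present at E11, with 8.49 and 21.1 CPM against 62.0, 89.0 and 77.8 CPM (edgeR adjusted p = 0.062). Without any 1 of the 5 libraries, none of the forebrain genes passed, while the median log2 fold change was -3.44 without E11 library 1 and -4.96 without E11 library 2. The E11 sections read at 10 µm had 57.6 and 0.729 CPM of Otx2, so forebrain counts differed between E11 sections.

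Of 12 genes of the midbrain and hindbrain, 1 fell and none rose, with a median log2 fold change of -1.51. That gene was Fgf17, a growth factor of the midbrain-hindbrain border, with 0 and 0.13 CPM at E11 and 10.8, 4.53 and 5.92 CPM at E10, a ratio of E10 over E11 of 94.0 with an interval of 16.7 to 3730 (edgeR adjusted p = 0.039). Fgf17 did not pass without any 1 of the 5 libraries (edgeR adjusted p = 0.069 to 0.435). Pax5 had 0.592 and 1.04 CPM against 18.9, 7.87 and 29.4 CPM and Cnpy1 had 0.790 and 0.391 CPM against 21.1, 2.15 and 39.5 CPM, and neither passed (edgeR adjusted p = 0.059 and 0.16). E10 library 2 was the lowest E10 library in both of these border genes. In the eye and pigment list none of 11 genes passed, and Pmel, a melanosome protein, reached 15.97 CPM in E10 library 2 and at most 1.38 CPM in the other 4 libraries. DESeq2 called 4 lower eye genes, and edgeR had 4 with an unadjusted p under 0.05.

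Genes of differentiated neurons were lower at E11. Of 21 tested, 6 fell and none rose, and the median log2 fold change was -1.64. All 21 lay below every E10 library in both E11 libraries, against 26.7% of the described genes. The list summed to 1652 and 2037 CPM at E11 and to 5902, 4864 and 7240.1 CPM at E10. The E10 sections read at 10 µm stood close to the E11 sums, at 2098 and 2304 CPM, and the E10 section at 25 µm stood at 3905 CPM. In the fit to the 5 libraries alone 18 passed. Against the E10 section at 25 µm and against the mean of 3 E10 groups none of the 21 passed, with median log2 fold changes of -1.003 and -0.95. The count was 0 without E11 library 1, 2 without E11 library 2, and 3, 6 and 2 without E10 libraries 1, 2 and 3.

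Several of the neuronal genes that fell serve the growing axon. Ina, internexin, an intermediate filament of neurons, had 36.1 and 62.8 CPM at E11 and 278, 242 and 341 CPM at E10, a log2 fold change of -2.42 ± 0.35 (SE; edgeR adjusted p = 0.0026). Gap43, a growth cone protein, had 59.8 and 98.6 CPM against 327, 262 and 410 CPM, a log2 fold change of -1.95 ± 0.32 (SE; edgeR adjusted p = 0.0074). Stmn2, a regulator of axonal microtubules, had 111 and 114 CPM against 444, 380 and 598 CPM, a log2 fold change of -1.95 ± 0.36 (SE; edgeR adjusted p = 0.014). Both E11 libraries lay well below the lowest E10 library in these genes. Nsg2, an endosomal protein of neurons, fell by 2.20 on the log2 scale, Onecut2, a cut homeobox factor, by 2.11, and Crmp1, a partner of the growth cone cytoskeleton, by 1.51 (edgeR adjusted p = 0.022, 0.037 and 0.043).

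Other neuronal genes showed how far this reached. Map1b, a microtubule-associated protein, had 401 and 611 CPM against 1371, 1746 and 1792 CPM and did not pass (edgeR adjusted p = 0.055). Slc17a6, the vesicular glutamate transporter VGLUT2, had 1.97 and 2.08 CPM against 32.0, 23.8 and 28.3 CPM, a log2 fold change of -3.65 ± 0.52 (SE; edgeR adjusted p = 0.0026). On the inhibitory side 2 of 12 genes fell and none rose, with a median log2 fold change of -2.52. Gabra2, a subunit of the GABA-A receptor, had 0.592 and 0.912 CPM against 6.61, 5.96 and 9.50 CPM (edgeR adjusted p = 0.045). With the pseudogene and X/Y columns left out before the fit, and against the E10 section at 25 µm, none of the 12 passed. Gabra2 did not pass without any 1 of the 5 libraries (edgeR adjusted p = 0.077 to 0.452), and Slc17a6 had an adjusted p of 0.092 without E11 library 1. Glra1, which encodes a glycine receptor subunit, had 33.8 and 50.3 CPM against 29.2, 21.1 and 36.5 CPM and did not pass (edgeR adjusted p = 0.42).

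The pan-motor factor Isl1, named here after its values were seen, had 25.3 and 31.4 CPM against 25.7, 29.8 and 24.8 CPM, which overlapped (edgeR adjusted p = 0.85). Of the other genes with large decreases, Prrxl1, a homeobox factor of sensory circuits, had no count at E11 and 5.55, 4.05 and 6.30 CPM at E10, at least 22.9-fold lower (edgeR adjusted p = 0.044). No count of Prrxl1 was found in the E10 section at 25 µm either, so its decrease was not seen against that section. It is a single shallower library whose body part is not in the labels, and the reason was not tested. Calb2, calretinin, had 0 and 0.781 CPM against 4.05, 11.2 and 16.2 CPM, a log2 fold change of -4.40 ± 0.89 (SE; edgeR adjusted p = 0.023). Prrxl1 did not pass without any 1 of the 5 libraries (0.086 to 0.389), and Calb2 did not pass without E11 library 1 or E10 libraries 2 and 3 (0.280, 0.056 and 0.082). Nrn1, neuritin, had 1.18 and 1.04 CPM against 13.9, 8.10 and 17.2 CPM, and Celf6, an RNA-binding protein, had 0.197 and 0.651 CPM against 6.52, 3.10 and 6.49 CPM (edgeR adjusted p = 0.018 and 0.025). Both lay below every E10 library in the E11 libraries, which the choice of genes required, and without E11 library 1 neither passed.

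Lhx1, a LIM homeobox factor of spinal and midbrain interneurons as well as of the nephric duct, had 10.5 and 11.5 CPM at E11 and 64.6, 60.0 and 109 CPM at E10, a log2 fold change of -2.70 ± 0.47 (SE; edgeR adjusted p = 0.01). It was held in the urogenital list, where it was the 1 gene of 16 to pass. Without E11 library 1, E11 library 2 or E10 library 3 its edgeR adjusted p was 0.237, 0.059 and 0.053. Lum, lumican, a proteoglycan of connective tissue, had 6.12 and 14.2 CPM against 45.9, 40.8 and 26.5 CPM (log2 fold change -1.76 ± 0.43, SE; edgeR adjusted p = 0.048), and was the 1 of 17 genes of its list to pass. Lum did not pass without E11 library 1 or without any 1 of the E10 libraries (0.072 to 0.477). The progenitor genes of the nervous system did not pass: Nes had 388 and 358 CPM against 795, 789 and 991 CPM, and 0 of 14 were called, with 2 lower at an unadjusted p under 0.05 by edgeR and 1 called by DESeq2.

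**Figure D4:**
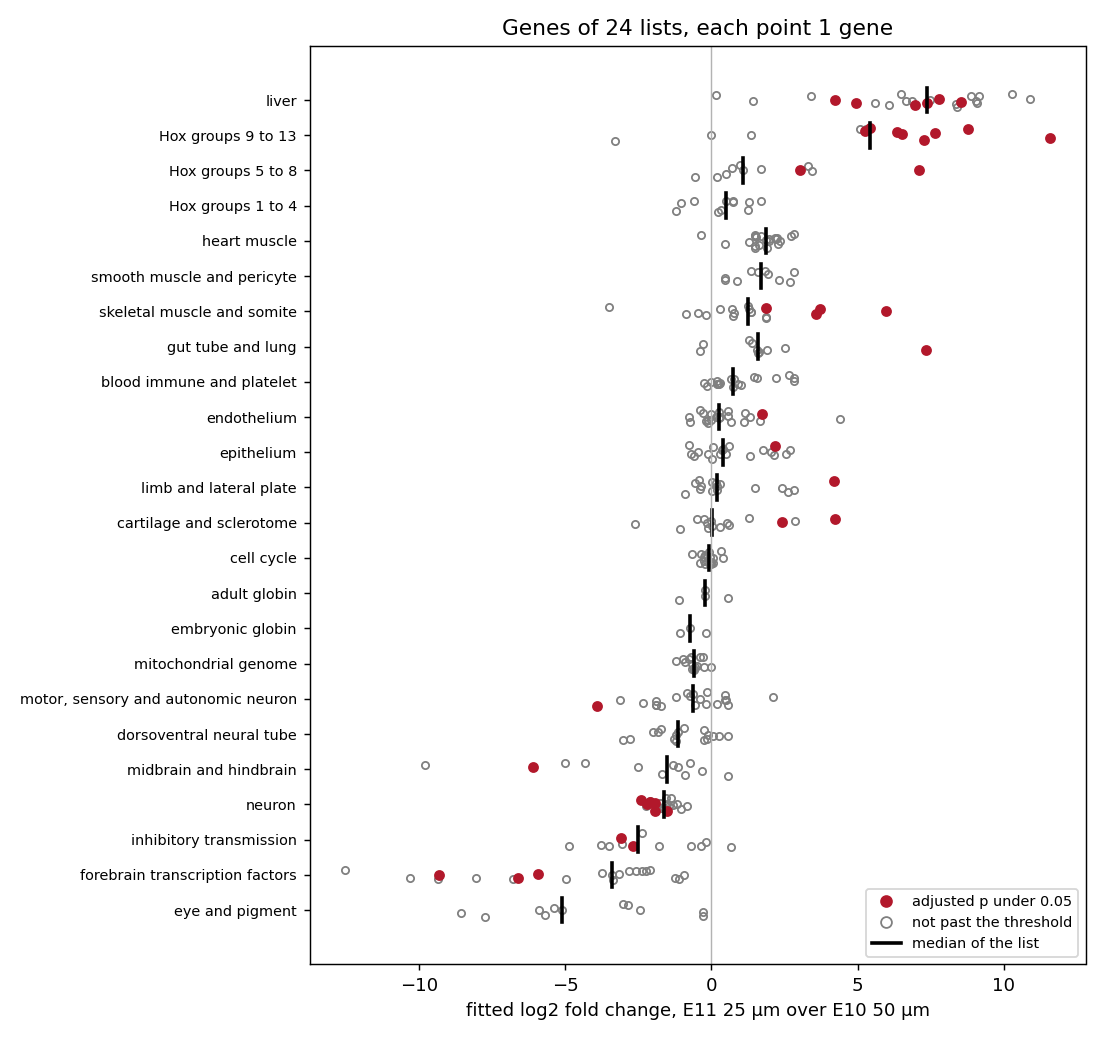
Fitted log2 fold changes, E11 at 25 µm over E10 at 50 µm, for the tested genes of 24 lists, with 1 point per gene, red where the adjusted p is under 0.05, and a black bar at the median of each list. The liver and posterior Hox lists have medians of 7.38 and 5.44, the forebrain list has -3.41, and values of genes with no count in one group are fitted values and not measured folds.

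Several broad programmes did not pass. None of 17 cell cycle genes was called (median log2 fold change -0.10), with 1 lower at an unadjusted p under 0.05 by edgeR and 0 by DESeq2, and Mki67 had 681 and 871 CPM at E11 and 853, 1047 and 888 CPM at E10. None of 22 glycolysis genes was called (median 0.42), with 3 higher at an unadjusted p under 0.05 by edgeR and 0 by DESeq2. Over the 15303 described genes, edgeR gave 1302 higher and 1461 lower at such a p. The embryonic globin genes of primitive red cells summed to 11983 and 9420.5 CPM at E11 and to 17785, 19493 and 10163 CPM at E10, and none of the 3 passed in edgeR, while DESeq2 called 1 and edgeR had 1 lower before adjustment, at p under 0.05. Hbb-bh1 had 1111 and 839.9 CPM against 3056, 2188 and 1560.2 CPM (edgeR adjusted p = 0.1), and the groups did not overlap. The adult Hba-a1 and Hba-a2 are near-identical copies whose counts may be shared, and both overlapped between the groups. None of 15 genes of the mitochondrial genome passed, also at an unadjusted p under 0.05 and with DESeq2.

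Hspa8, the constitutive heat shock chaperone, was the 1 gene of 12 on the immediate early and heat shock list to pass, with 64.5 and 76.2 CPM at E11 and 397, 364 and 609 CPM at E10, a log2 fold change of -2.57 ± 0.32 (SE; edgeR adjusted p = 0.00076). Hsp90aa1 and Hsph1 of the same list did not pass (edgeR adjusted p = 0.85 and 0.67). RP24-286J21.7, a column named for a clone and not matched to the annotation, had no count at E11 and 17.4, 16.9 and 23.5 CPM at E10, at least 82.4-fold lower (edgeR adjusted p = 8.9e-05). Akr1e1, an aldo-keto reductase, had 1.78 and 2.87 CPM against 39.0, 25.7 and 39.8 CPM, a log2 fold change of -3.74 ± 0.38 (SE; edgeR adjusted p = 0.00015). Zfp990, a zinc finger gene with close relatives, went the other way, with 7.90 and 12.8 CPM at E11 and 0.0881, 0 and 0 CPM at E10, a ratio of 329 with an interval of 58.1 to 13100 (edgeR adjusted p = 0.0002). Hspa8, RP24-286J21.7, Akr1e1 and Zfp990 all passed without any 1 of the 5 libraries. BC049730, a gene on which the labels and files say nothing further, had 12.4 and 5.99 CPM at E11 and no count at E10, at least 86.6-fold higher (edgeR adjusted p = 0.039), and Pla2g12b, of the secreted phospholipase A2 family, had 7.30 and 5.86 CPM against 0.0881, 0.119 and 0 CPM, a ratio of 97.7 with an interval of 26.2 to 820 (edgeR adjusted p = 0.022). Without E11 library 1 neither of the last pair passed (0.374 and 0.208).

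Some of these genes, which are held in none of the organ lists, were also apart in other sections, and others were not. Whether they belong to an organ programme was not tested. RP24-286J21.7 had no count in the E11 sections at 10 µm and 24.9 CPM in the E10 section at 25 µm, and Zfp990 had 11.7 and 20.1 CPM in the E11 sections at 10 µm and no count in that E10 section. BC049730 had 15.6 and 0.729 CPM in the E11 sections at 10 µm, and Pla2g12b had 0 and 9.12 CPM there, against 0.167 CPM in 1 of the E10 sections at 10 µm. For Fezf2 the E11 sections at 10 µm had 11.7 and 0.729 CPM, so 1 of them was at the E10 level. Over the described genes, 133 of the 162 that were higher lay above all 6 E10 libraries of the series in both E11 libraries, and 127 of the 158 that were lower lay below all 6. In each of Hox groups 6 to 8 the E10 sections at 10 and 25 µm held 0 to 0.167 CPM. Their part of the body is not in the labels. Against the E10 section at 25 µm alone, the E11 libraries lay beyond it in 147 of the 162 and in 155 of the 158. In the edgeR test against that single shallower library, 8 of the 52 called genes named by the rule passed in the same direction, 42 did not pass and 2, Krt18 and Prrxl1, did not keep their direction.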

How the data were processed

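Transcripts were counted in sections of mouse embryos, and the authors deposited 1 file per library that holds raw counts for every pixel and gene symbol. Frozen sections, Nextera XT libraries and paired reads on a HiSeq instrument are per the labels' protocols. CASAVA 1.8.2 and the build GRCh38, a human build, are named in the submitters' processing notes, with no role. The aligner, annotation, use of strand and collapsing of duplicate reads are not given in the sources used here, so the build behind the mouse counts is unknown and no coordinates were taken for the counted genes.

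Stage and width in the labels set the groups, and replicate numbers follow accession order except where a title gives one. Of 16 columns with an Ensembl identifier, 15 were added to their symbol, which left 30534 features. GENCODE M21 and RefSeq gave gene types and chromosomes for 29381 and a further 437 of them, and 716 stayed unmatched. Left out of the description were 5267 pseudogene columns and 881 further columns on X or Y. Pseudogenes took up 9.96% and 9.36% of E11 counts and 6.55% to 6.89% of E10 counts, and 167 of 2405 tested were higher at E11. The antibody libraries were not used here, and a few list genes with no column of their symbol were not analysed here. No pair of libraries agreed within sampling noise (chi-square per degree of freedom 38.1 to 70.0).

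Counts summed over tissue pixels were tested with edgeR 4.0.16 (R 4.3.3, limma 3.58.1): TMM factors, default filter by group, robust quasi-likelihood fit of 6 group means to all 11 libraries with 5 residual degrees of freedom, two-sided, Benjamini-Hochberg over 18233 genes, threshold 0.05. DESeq2 1.42.0 was an alternative. Pixels were never replicates. The members, the 35 gene lists (552 genes, 528 tested) and the tests were chosen with earlier results of these data known. Named genes were, per direction, the 12 called genes with the largest log2 fold change, at least 5 CPM in the higher group and no overlap between libraries, and per list the called genes and the 3 most abundant, while any member of the Hox lists could be named. Gm symbols with digits and Rik symbols were not named, and some genes that the rule chose are not reported here. Genes outside this rule are said to be named after their values were seen. A fold against a group with no count is a bound at 3 counts over the group, and for 1 to 3 counts the ratio has an exact 95% interval. Moran's I used log2(counts per 10000 + 1) over neighbouring pixels. The fit was tested on simulated data with known changes.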

Additional observations from a re-analysis of the deposited data

How the results depend on the processing

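The directions of the organ programmes depended less on the processing than the number of calls. Counts of called genes are given below over all tested genes, then for the described genes that were higher and lower. With the main settings they were 507, 162 and 158. They were 1055, 393 and 367 with DESeq2, 1702, 638 and 684 with no filter on low counts, 1583, 630 and 619 with the 5 libraries alone, and 1111, 439 and 420 without both E11 10 µm libraries. They fell to 178, 100 and 78 with the pseudogene and X/Y columns left out before the fit, and to 83, 16 and 27 against the single E10 library at 25 µm. Against the mean of 3 E10 groups 265 described genes were higher, and the other counts stayed within 1.5 times. Leaving out 1 library gave 71 to 743, 15 to 322 and 5 to 189. With RLE factors, other tissue thresholds, all pixels or the globin columns left out, the counts stayed within 1.5 times of the main ones. The cause of these differences was not tested, beyond the fewer libraries or genes that an alternative uses by its construction.

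Of the 52 called genes named by the rule, 48 stayed called with DESeq2, 33 with the pseudogene and X/Y columns left out, 10 and 28 without E11 libraries 1 and 2, and 23, 31 and 18 without E10 libraries 1, 2 and 3. Foxa3, Fgf17 and Icam2 were among those lost with these columns left out (edgeR adjusted p = 0.064, 0.060 and 0.057). Against the E10 library at 25 µm, Krt18 had a log2 fold change of -0.05 and Prrxl1 of 0.00. The ratios of counts and genes per pixel kept their direction under every threshold, with thinning and without any 1 library, and no exact permutation test on 2 against 3 libraries can reach p under 0.1. No paired analysis was possible because the labels give the groups no shared replicate numbers.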

Other observations

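Among other called genes, 4 are described here, and they were named after their values were seen. T, the brachyury factor of notochord and tail bud, had 18.9 and 13.8 CPM at E11 and 1.06, 1.31 and 0.846 CPM at E10, a log2 fold change of 4.04 ± 0.52 (SE; edgeR adjusted p = 0.0011). Car3, a carbonic anhydrase, had 104 and 67.1 CPM against 9.25, 5.01 and 4.80 CPM (log2 fold change 3.88 ± 0.43, SE; edgeR adjusted p = 0.00029). Wnt4, a signal of kidney, gonad and floor plate, had 186 and 113 CPM against 36.0, 23.2 and 22.8 CPM (log2 fold change 2.58 ± 0.35, SE; edgeR adjusted p = 0.0018). Neurog3, a proneural factor of the pancreas and floor plate, had 31.0 and 36.7 CPM against 4.85, 2.38 and 4.98 CPM (log2 fold change 3.18 ± 0.74, SE; edgeR adjusted p = 0.049), and it stayed called under 8 of 17 alternatives. In all 4 genes both E11 libraries lay above the 3 E10 libraries at 50 µm, as in every called gene that was higher.

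Stmn1, a microtubule regulator of dividing and young neural cells, was also named after its values were seen, and fell, with 200.1 and 242 CPM at E11 and 1146, 817 and 857 CPM at E10 (log2 fold change -1.96 ± 0.29, SE; edgeR adjusted p = 0.0034).

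Replication-dependent histone genes, also chosen after their values were seen, gave 13 higher and 0 lower calls of 61 tested, with a median log2 fold change of 1.10. They summed to 17442 and 4623 CPM in the E11 libraries and to 2387, 3356 and 3219 CPM in the E10 libraries, so E11 library 1, which was low in mitochondrial counts, stood far above library 2. These genes are near-identical copies, and their counts may be shared among them.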
